A study of Mus musculus with 2 samples.

Results

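PD-1+ Tcf7+ CD8 T cells were picked out from the CD45+ cells of mouse liver metastases by the counts of a few genes in each cell. Such a cell had at least 2 UMIs (unique molecular identifiers, which count captured RNA molecules) of the CD3 genes Cd3d, Cd3e and Cd3g together and at least 1 of Cd8a and Cd8b1. It had no Cd4, at least 1 UMI of Pdcd1 (PD-1) and at least 1 of Tcf7, fewer than 3 UMIs of the cell cycle genes Mki67, Top2a, Birc5, Pclaf and Cdk1 together, and none of the macrophage gene Csf1r or the B cell gene Cd79a. Of 19999 filtered cells, 101 met the rule, 64 in the Ctrl library and 37 in the KD library. They were compared with the other groups of the same non-cycling CD8 T cell gate, which were PD-1+ Tcf7- (934 Ctrl and 286 KD cells), PD-1- Tcf7+ (113 and 166) and PD-1- Tcf7- (365 and 186).

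The study asked how SLAMF3 on colorectal cancer cells shapes the immune cells around liver metastases. Both groups were C57BL/6 mice aged 6 to 8 weeks that received MC38-LM3b cells, a liver-metastatic derivative of the mouse colorectal cancer line MC38, by injection into the spleen. A short hairpin RNA was expressed in the injected cells, a scrambled sequence (shScramble) in Ctrl and one against SLAMF3 (shSLAMF3) in KD. After 2 weeks CD45+ cells were enriched by positive selection from the liver metastases, with 3 mice pooled for each library. The hairpin was in the injected tumor cells only, so the T cells described here came from the host and did not carry it.

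The hairpin sequences are shown because they are the one designed difference between the groups. Searched exactly in the mouse transcripts of GENCODE M21, the scrambled one had 0 matches among 141767 transcripts. The other matched 5 transcripts, all of them of Ly9, the gene for SLAMF3. On the GRCm38 build the match lies at chr1:171601975-171601995 on the minus strand, in exon 3 of 10 of ENSMUST00000068878.13, within the coding part, so no base of it falls in a UTR of that transcript.
shRNA-Scramble: caacaagatgaagagcaccaa
shRNA-SLAMF3#2: caccctaatctgcactgtaaa

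CD8 T cells that meet antigen for a long time, as in tumors, can enter a state called exhaustion, in which inhibitory receptors such as PD-1 stay on the surface and killing and cytokine release fall. Within it, cells that keep TCF-1, the transcription factor encoded by Tcf7, are known to renew themselves and to give rise to TCF-1-negative cells with granzymes and the inhibitory receptor TIM-3 (Havcr2). Progenitor-like cells of this kind usually carry Slamf6 (Ly108) and are known for their proliferation when PD-1 is blocked.

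The 2 libraries held 10416 and 10943 cells, and the median depth of filtered cells was 5411.5 UMIs in Ctrl and 4989 in KD. PD-1+ Tcf7+ cells had a median of 5528.5 UMIs in Ctrl (range 2232 to 14697) and 6722 in KD (3062 to 19972), against 6078 and 5808 in PD-1+ Tcf7- cells and 4879 and 4986.5 in PD-1- Tcf7+ cells. Because a deeper cell shows more genes, shares of cells with a UMI are also given after each cell was thinned to 1500 UMIs, which kept every PD-1+ Tcf7+ cell. With 1 library in each group there was no replicate error and no test, and all intervals are 95% intervals for counting error only. The 2 libraries had 27 barcode sequences in common, and 1 KD and 0 Ctrl PD-1+ Tcf7+ cells carried one of them.

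The label was first checked against the markers. Pdcd1 and Tcf7 chose the cells, so their counts are a description. Tcf7 was held by a single UMI in 29 of 64 Ctrl and 8 of 37 KD cells, the cells just inside the rule, and the highest count was 7 in Ctrl and 9 in KD. Pdcd1 was held by a single UMI in 27 Ctrl and 17 KD cells. Cells with 0 UMIs of either gene lie just outside the rule and form the comparison groups, so some of these may express a gene that was not captured. Macrophages, neutrophils and B cells (median depth 2566 to 8102.5 UMIs) were chosen by their own markers and had no UMI of Cd3d, Cd3e or Cd3g. Of these cells 0.342% to 1.28% had a UMI of Pdcd1 and 0% to 0.725% one of Tcf7. Both together were seen in 0% to 0.0920% of these cells. Cells with CD3 RNA were left out of these gates, so the shares may understate the background. How many PD-1+ Tcf7+ cells were PD-1+ Tcf7- cells with a stray Tcf7 UMI was not tested.

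Slamf6, the third marker and one the rule did not use, was detected in 54.7% of PD-1+ Tcf7+ cells in Ctrl (35 of 64) and 67.6% in KD (25 of 37). PD-1+ Tcf7- cells reached 8.46% and 11.5%, and PD-1- Tcf7+ cells 29.2% and 27.7%. At 1500 UMIs per cell the PD-1+ Tcf7+ shares were 20.3% and 32.4%, against 2.80% and 3.85% in PD-1+ Tcf7- cells. Neutrophils, which should lack the gene, had 0.725% and 0.342%, while macrophages had 10.5% and 10.4% (median depth 6618 and 8102.5 UMIs). B cells, which are known to express it, had 18.6% and 16.6% (2694 and 2723.5 UMIs). The shares in PD-1+ Tcf7- cells lay near those of macrophages and above those of neutrophils, and how much of them is background was not tested. Pdcd1 and Tcf7 were set by the rule, so Slamf6 alone checked the label, and the remaining cells had no Slamf6 UMI. Slamf6 without Havcr2 was seen in 31 of 64 Ctrl cells (48.4%, interval 35.8% to 61.3%) and 23 of 37 KD cells (62.2%, 44.8% to 77.5%), or 17.2% and 32.4% at equal depth. Slamf6 is a self-binding receptor of the SLAM family, to which SLAMF3 also belongs.

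Some RNA of other cell types was present. Of 11 macrophage genes 10 had a UMI in Ctrl and 9 in KD, at a summed level of 249 and 289 CPM (the UMIs of a gene as a share of the summed UMIs of the group, scaled to counts per 1000000). Csf1r and Cd79a were at 0 by the rule. The 8 B cell genes summed to 91.2 CPM in Ctrl and 166 CPM in KD, with UMIs in 34.4% and 51.4% of cells, and of these Ighm was the only one with a UMI in KD. Ms4a1 and Pax5 were at 0 in both libraries. The 8 dendritic cell genes summed to 199.5 and 261 CPM, in 59.4% and 56.8% of cells, with Flt3, Xcr1, Clec9a, Cd209a and Siglech at 0. The 6 endothelial genes summed to 83.8 and 88.2 CPM, in 34.4% and 48.6% of cells. Foxp3 and all 4 globin genes were at 0. The part of this RNA in the results below was not tested. Neutrophil genes summed to 29.6 CPM in Ctrl and 2039 CPM in KD, and 91.7% of the latter came from 1 cell with 489 UMIs of S100a8 and S100a9. The next highest KD cell had 4. UMIs of the neutrophil genes were nonetheless found in 17.2% of Ctrl and 73.0% of KD cells, so in KD they were not limited to that 1 cell. The NK cell list, which also holds Gzma and Eomes that CD8 T cells express, summed to 409 and 1171 CPM, with its defining genes Ncr1 at 9.85 and 7.06 CPM and Klrb1c at 7.39 and 10.6 CPM. Leaving out cells with 20 or more UMIs of S100a8 and S100a9 kept 36 KD cells and moved none of the counts of genes below by over 1.5 times.

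PD-1+ Tcf7+ cells made up a small and similar share of non-cycling CD8 T cells in both libraries, while the groups around them differed. They were 4.34% in Ctrl (64 of 1476, interval 3.36% to 5.50%) and 5.48% in KD (37 of 675, 3.89% to 7.48%), a difference of 1.15 points (-0.83 to 3.37). PD-1+ Tcf7- cells were 63.3% in Ctrl and 42.4% in KD, 20.9 points lower in KD (interval -25.4 to -16.3), and PD-1- Tcf7+ cells were 7.66% and 24.6%, 16.9 points higher (13.4 to 20.6). The share of PD-1+ Tcf7+ cells thus depended on what they were counted against. Among PD-1+ cells they were 6.41% in Ctrl and 11.5% in KD, 5.04 points more (1.36 to 9.28). Among Tcf7+ cells they were 36.2% and 18.2%, a difference of -17.9 points (-27.0 to -8.65). Of all filtered cells they were 0.652% and 0.363%, a difference of -0.289 points (-0.498 to -0.0860). This last share also counts every other CD45+ cell type, so more cells of another type and fewer of these cannot be told apart.

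**Figure D1:**
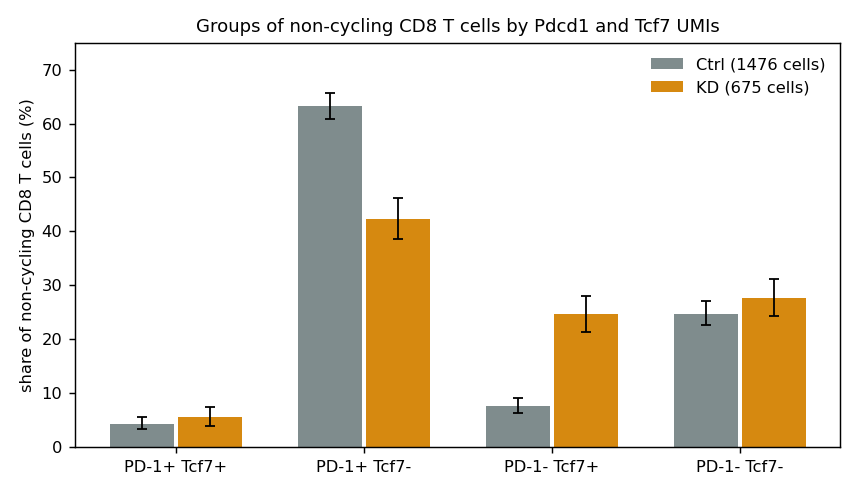
Share of non-cycling CD8 T cells (percent, vertical axis) in 4 groups set by Pdcd1 and Tcf7 UMIs, for the Ctrl (gray, 1476 cells) and KD (orange, 675 cells) libraries, with exact 95% intervals for counting error as bars. The PD-1+ Tcf7+ bars stand at 4.34% and 5.48% with overlapping intervals, while PD-1+ Tcf7- cells stand at 63.3% and 42.4% and PD-1- Tcf7+ cells stand at 7.66% and 24.6%.

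Both genes were rarely captured together at low depth. When all cells were thinned to 1500 UMIs before the rule was applied, 7 of 1132 Ctrl cells (0.618%) and 5 of 435 KD cells (1.15%) met it. With 2 Tcf7 UMIs asked for, 35 Ctrl and 29 KD cells were left, and the shares of 2.37% and 4.30% differed by 1.93 points (interval 0.25 to 3.88), where the interval of the rule itself spans 0. In both libraries PD-1 was less frequent among Tcf7+ than among Tcf7- cells, at 36.2% against 71.9% in Ctrl and 18.2% against 60.6% in KD. The differences in the groups around the PD-1+ Tcf7+ cells kept their direction after thinning to 1500 UMIs but were smaller. PD-1+ Tcf7- cells were then 31.5% in Ctrl and 25.5% in KD, a difference of -6.02 points (-10.9 to -0.88). PD-1- Tcf7+ cells were then 4.94 points higher in KD (2.14 to 8.17).

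The limit on cell cycle genes removed some cells that otherwise met the rule. Without it, 25 of 89 PD-1+ Tcf7+ cells in Ctrl (28.1%, interval 19.1% to 38.6%) and 17 of 54 in KD (31.5%, 19.5% to 45.6%) had 3 or more cycle UMIs. PD-1+ Tcf7- cells were over that limit more often, at 49.5% and 51.9%, and PD-1- Tcf7+ cells seldom, at 5.83% and 8.29%. The PD-1+ Tcf7+ share lay 21.4 points below that of PD-1+ Tcf7- cells in Ctrl (10.6 to 30.7 points below) and 20.5 points below in KD (5.80 to 33.1 points below). The cycling cells were deep, with a median of 15684 and 14165 UMIs in the PD-1+ Tcf7+ group, and the part of depth in these shares was not tested.

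Compared with PD-1+ Tcf7- cells, PD-1+ Tcf7+ cells had 11 of 21 progenitor-associated genes higher and 11 of 20 terminal exhaustion-associated genes lower. Because the groups were cut by Tcf7 itself, the following is a description of what came with that cut. A gene was counted as higher or lower when its CPM ratio was at least 2-fold the same way in both libraries. Among the 9131 genes that reached 50 UMIs, PD-1+ Tcf7+ cells had 154 (1.69%) higher and 232 (2.54%) lower.

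Of 21 progenitor-associated genes tested, 11 were higher and 0 lower, with a median log2 ratio of 1.24 in Ctrl and 1.27 in KD against -0.03 and -0.04 over all genes. They included Slamf6, Emb, Il7r, Ccr7, Lef1, Bach2, Satb1, Bcl6, Tnfsf8 and Xcl1. Slamf6 stood at 153 CPM in Ctrl and 222 CPM in KD, against 15.96 and 23.3 CPM in PD-1+ Tcf7- cells, a log2 ratio of 3.26 (interval 2.77 to 3.73) and 3.26 (2.67 to 3.86). Emb, an adhesion protein of the immunoglobulin superfamily, stood at 471 and 547 CPM against 50.5 and 54.5. Il7r, the receptor for the survival cytokine IL-7, was at 158 and 208 CPM against 33.4 and 39.2, a log2 ratio of 2.24 and 2.41. These 3 genes ranked among the 10 highest of all ranked genes.

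Lef1, a transcription factor of the same family as TCF-1, had log2 ratios of 2.14 (1.59 to 2.66) and 1.58 (0.99 to 2.15). Bach2, a repressor that holds back effector genes, had 1.30 and 1.27, and Bcl6, a repressor needed by follicular helper cells, 1.24 and 1.28. Xcl1, a chemokine that draws cross-presenting dendritic cells, was detected in 46.9% of PD-1+ Tcf7+ cells in Ctrl and 54.1% in KD, against 7.60% and 9.44% of PD-1+ Tcf7- cells, and 23.4% and 27.0% against 3.55% and 4.20% at equal depth. In macrophages Xcl1 was seen in 0.874% and 0.528% of cells. Id3, a regulator often paired with TCF-1, was not among the 11. It stood at 91.2 CPM against 6.58 in Ctrl, and at 67.0 CPM against 55.1 in KD. In KD 56.7% of the Id3 UMIs of PD-1+ Tcf7- cells came from 1 cell. Without the top cell of each group, an alternative chosen after seeing the data, the Id3 log2 ratio was 3.86 in Ctrl and 1.05 (0.06 to 1.95) in KD. Id3 was detected in 29.7% and 27.0% of PD-1+ Tcf7+ cells, against 2.998% and 7.34%. Cxcr5, a homing receptor for B cell follicles, had only 7 UMIs in Ctrl and 4 in KD, in 9.38% and 10.8% of cells.

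Ccr7, a receptor for homing to lymphoid tissue, and S1pr1, which guides cells out of it, were higher than in PD-1+ Tcf7- cells in both libraries, and so was Cxcr3. Ccr7 was at 121 and 138 CPM against 25.2 and 21.0. Cxcr6, a receptor of tissue-resident cells, was lower, at 111 and 45.9 CPM against 326 and 311. Of 14 genes of quiescence and recirculation 6 were higher and 0 lower, against 1.69% and 2.54% of all genes. Among them Dapl1 had 32 UMIs in each library's PD-1+ Tcf7+ cells, while the far more numerous PD-1+ Tcf7- cells had 2 in Ctrl and 0 in KD.

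The terminal exhaustion list moved the other way, with 11 of 20 genes lower and 0 higher and medians of -1.64 and -1.44. Havcr2 was detected in 12.5% and 8.11% of PD-1+ Tcf7+ cells against 71.3% and 66.1% of PD-1+ Tcf7- cells, and its log2 ratio was -2.41 (-3.07 to -1.82) in Ctrl and -3.11 (-4.24 to -2.17) in KD. Entpd1 (CD39, which breaks down extracellular ATP) was at 29.6 and 42.3 CPM against 184 and 190. Prdm1 (Blimp-1) and Id2, which act in effector differentiation, were also lower. Cd244a, another SLAM family receptor, had 1 UMI in each library, a ratio with wide limits of -9.50 to -1.70 on the log2 scale in Ctrl.

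Exhaustion genes were not all lower. Tox, the transcription factor that sets up the exhausted state, was detected in 98.4% of PD-1+ Tcf7+ cells in Ctrl and 94.6% in KD, close to the 95.3% and 96.9% of PD-1+ Tcf7- cells, and stood at 1412 and 1111 CPM against 1153 and 1016. Ctla4 was at 399 and 385 CPM against 309 and 399.5. Lag3 was at 168 CPM against 167 in Ctrl and at 91.7 CPM against 165 in KD. Of 12 inhibitory receptor genes 1 was higher (Btla) and 3 were lower (Havcr2, Cd244a and Cd200r1), against 1.69% and 2.54% of all genes.

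Cytotoxic genes were lower or between the limits, with 4 of 14 lower (Gzma, Gzmb, Gzmf and Prf1) and 0 higher. Of all genes 2.54% were lower and 1.69% higher. Gzmb was detected in 20.3% and 24.3% of PD-1+ Tcf7+ cells against 84.0% and 87.1%, and stood at 113 and 148 CPM against 897 and 962. Macrophages had Gzmb in 3.54% and 2.21% of cells. Prf1 (perforin, which opens the target cell membrane) stood at 163 and 98.8 CPM against 501 and 380. Of the cytokines and chemokines tested, Ccl3, Ccl5, Csf1 and Spp1 were lower, and Xcl1 alone was higher. Gzmf was at 0 in PD-1+ Tcf7+ cells of both libraries, so its ratio is a bound only. Ccl5, a chemokine of effector and memory cells, was the most abundant of them at 1419 and 2452 CPM, against 5498 and 8005 CPM in PD-1+ Tcf7- cells. Filip1, Sytl2 (which takes part in granule release), Lig1, Rexo5 and Cd7 completed the 10 lowest ratios, with Filip1 seen in 7.81% and 5.41% of PD-1+ Tcf7+ cells against 35.7% and 37.4%.

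None of 18 interferon-stimulated genes, 18 immediate early and heat shock genes, 17 glycolysis and hypoxia genes and 7 NK-type receptors passed 2-fold in both libraries. Of all genes 1.69% and 2.54% did so, and nothing is read from a count of 0 in lists of this size. Of the SLAM family and its adaptors, Slamf6 was higher and Cd244a lower among 11. Ly9 itself was at 36.95 and 35.3 CPM in PD-1+ Tcf7+ cells (15 and 10 UMIs) and 24.02 and 24.4 in PD-1+ Tcf7- cells.

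Outside the lists the highest ratio was that of Aff3, a nuclear protein linked to transcription elongation that is also abundant in B cells. It was detected in 73.4% and 78.4% of PD-1+ Tcf7+ cells against 1.28% and 3.15% of PD-1+ Tcf7- cells, with log2 ratios of 6.83 (6.23 to 7.48) and 5.17 (4.48 to 5.94). PD-1- Tcf7+ cells had it in 63.7% and 72.9% of cells, close to the PD-1+ Tcf7+ shares. Macrophages had Aff3 in 1.06% and 2.21% of cells, and the B cell gate in 91.0% and 86.1%. The B cell list had 37 and 47 UMIs in the PD-1+ Tcf7+ cells, in 34.4% and 51.4% of them, with Ms4a1 and Pax5 at 0, and its part in the Aff3 ratio was not tested. Adk (adenosine kinase), Fgf13, Cmah, Cd83, Nrn1 and Arl5c completed the 10 highest, with log2 ratios of 2.37 to 3.51 over both libraries. Nrn1 (neuritin) and Cd83 differed from Aff3 in KD, where PD-1- Tcf7+ cells had them in only 3.61% and 3.01% of cells, against 29.7% and 37.8% of PD-1+ Tcf7+ cells.

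**Figure D2:**
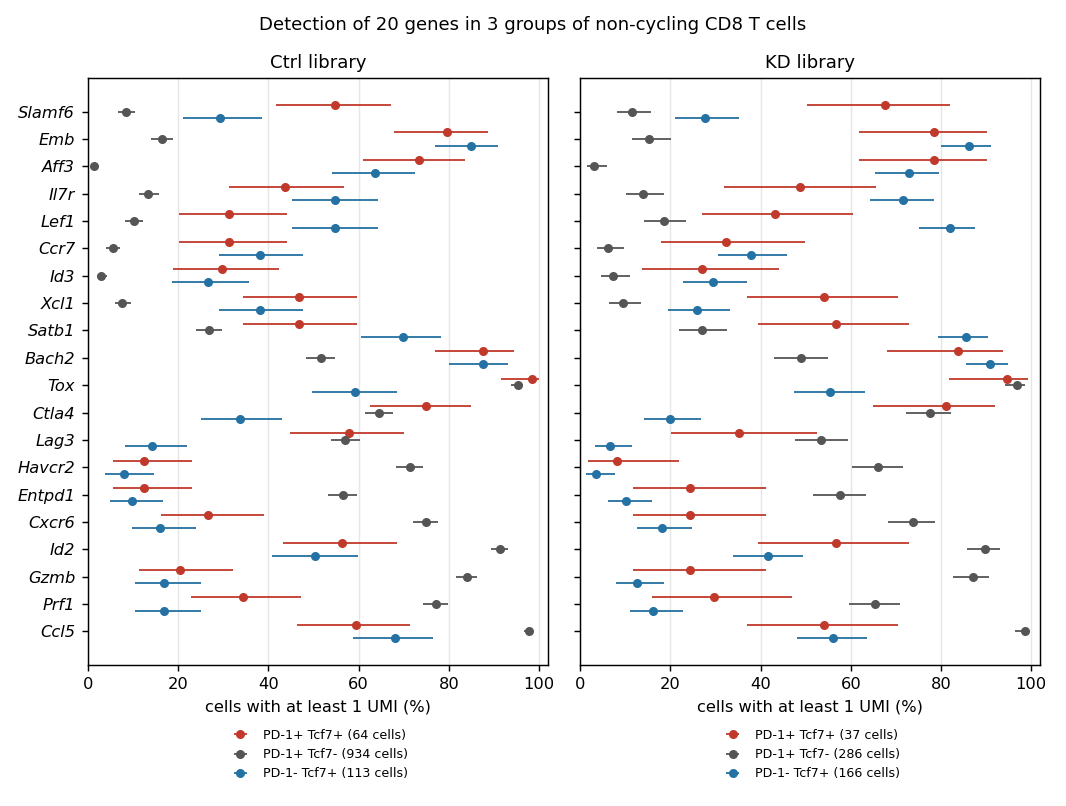
Percent of cells with at least 1 UMI (horizontal axis) of 20 genes in PD-1+ Tcf7+ (red), PD-1+ Tcf7- (dark gray) and PD-1- Tcf7+ (blue) cells, with Ctrl on the left and KD on the right and exact 95% intervals as lines. Red points lie near blue for Emb, Aff3, Havcr2 and Gzmb, near gray for Tox and Ctla4, and to the right of both for Slamf6.

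**Figure D3:**
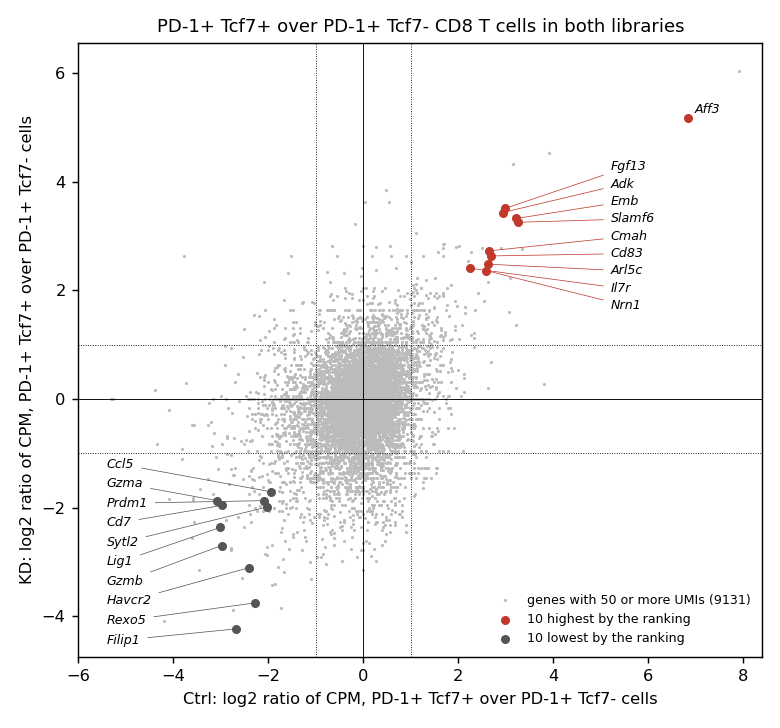
Log2 ratio of CPM in PD-1+ Tcf7+ over PD-1+ Tcf7- cells for 9131 genes in Ctrl (horizontal) and KD (vertical), with dotted lines at 2-fold and a UMI sum of 0 set to 3 counts. The 10 highest (red) and 10 lowest (dark gray) ranked genes lie in the corners where both libraries point the same way, with Aff3 at 6.83 and 5.17.

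Compared with PD-1- Tcf7+ cells, which shared Tcf7, PD-1+ Tcf7+ cells had 4 of 9 inhibitory receptor genes higher and 8 of 16 quiescence and recirculation genes lower. These groups were cut by Pdcd1, so this too is a description. Among 5537 genes that reached 50 UMIs, 108 (1.95%) were higher and 149 (2.69%) were lower. Tox stood at 1412 and 1111 CPM against 482 and 359, with log2 ratios of 1.55 (1.34 to 1.76) and 1.63 (1.40 to 1.86). Of 9 inhibitory receptors 4 were higher (Ctla4, Lag3, Havcr2 and Klrc1) and 0 lower. Lag3, which binds MHC class II, was at 168 and 91.7 CPM against 33.9 and 16.7. Of the costimulatory receptors, Tnfrsf4 (OX40) and Tnfrsf9 (4-1BB) were higher, with Tnfrsf9 at 338 and 282 CPM against 98.4 and 71.4.

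Among transcription factors Tox, Ikzf2 (Helios) and Irf8 were higher, and Lef1, Klf2 and Klf3 lower. Slamf6 and Sh2d1a, which encodes the adaptor SAP that SLAM receptors signal through, were both higher, with Sh2d1a at log2 ratios of 1.28 and 1.92. Of 16 quiescence and recirculation genes 8 were lower and 0 higher, with medians of -1.39 and -1.12 against -0.02 and -0.01 over all genes. They included Klf2, which drives expression of exit receptors, at log2 ratios of -1.76 and -1.73, and Bcl2, which blocks cell death, at -1.76 and -1.69. Among the ranked genes Dscam, better known as a neuronal adhesion molecule, was highest at 2.86 (2.12 to 3.68) and 3.36 (2.69 to 4.07). It was seen in 43.8% and 37.8% of PD-1+ Tcf7+ cells against 8.85% and 4.22% of PD-1- Tcf7+ cells. Creb3l2, Ccdc148, Serpine2, Nrgn, Atp2b2, Eea1 and Nrp1 were also among the 10 highest, and Fam241a, Galnt10, Rras2, Satb1, Bbs9, Sidt1 and Slc12a7 among the 10 lowest. Fam241a was at 24.6 and 24.7 CPM against 183 and 273 CPM in PD-1- Tcf7+ cells.

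PD-1+ Tcf7+ cells thus lay on a different side of their neighbours for different genes. Satb1, a chromatin organizer of T cells, stood at 150 and 261 CPM in them, above the 72.9 and 66.4 CPM of PD-1+ Tcf7- cells and below the 826 and 949 CPM of PD-1- Tcf7+ cells. Lef1, at 98.5 and 138 CPM, lay between 22.4 and 46.0 CPM on one side and 375 and 724 CPM on the other. For Slamf6 they were above both groups in both libraries.

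The PD-1+ Tcf7+ cells also varied among themselves with the number of Tcf7 UMIs, here with both libraries together. Cells with 3 or more Tcf7 UMIs (48 cells, median depth 6608.5) had Xcl1 in 66.7% (interval 51.6% to 79.6%) against 32.4% (18.0% to 49.8%) of the 37 cells with 1 Tcf7 UMI (median depth 5273). The order was the same in each library, at 65.4% against 27.6% in Ctrl and 68.2% against 50% in KD. Gzmk, a granzyme of early effector and memory cells, was seen in 37.5% and 13.5%. Havcr2 was seen in 4.17% against 24.3%, with 0% against 27.6% in Ctrl, and 9.09% of 22 cells against 12.5% of 8 in KD. Prf1 was in 27.1% against 48.6%. Gzma was in 14.6% against 21.6% of cells. Its level was nonetheless higher in the cells with 3 or more Tcf7 UMIs, at 446 CPM against 136. By library it was 910 against 183 in KD and 5.67 against 120 in Ctrl. In KD 40.0% of the 200 Gzma UMIs came from 1 cell, which was among those with 3 or more Tcf7 UMIs. Gzmb was in 14.6% against 35.1%, a gap found in Ctrl (3.85% against 37.9%) and not in KD (27.3% against 25%). The intervals overlapped for Gzmk, Havcr2, Prf1, Gzma and Gzmb, and of the genes named here only those of Xcl1 did not. Tox was near its ceiling in both, at 95.8% and 100%. KD had the larger part of its cells in the higher Tcf7 group, 22 of 37 against 26 of 64 in Ctrl.

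**Figure D4:**
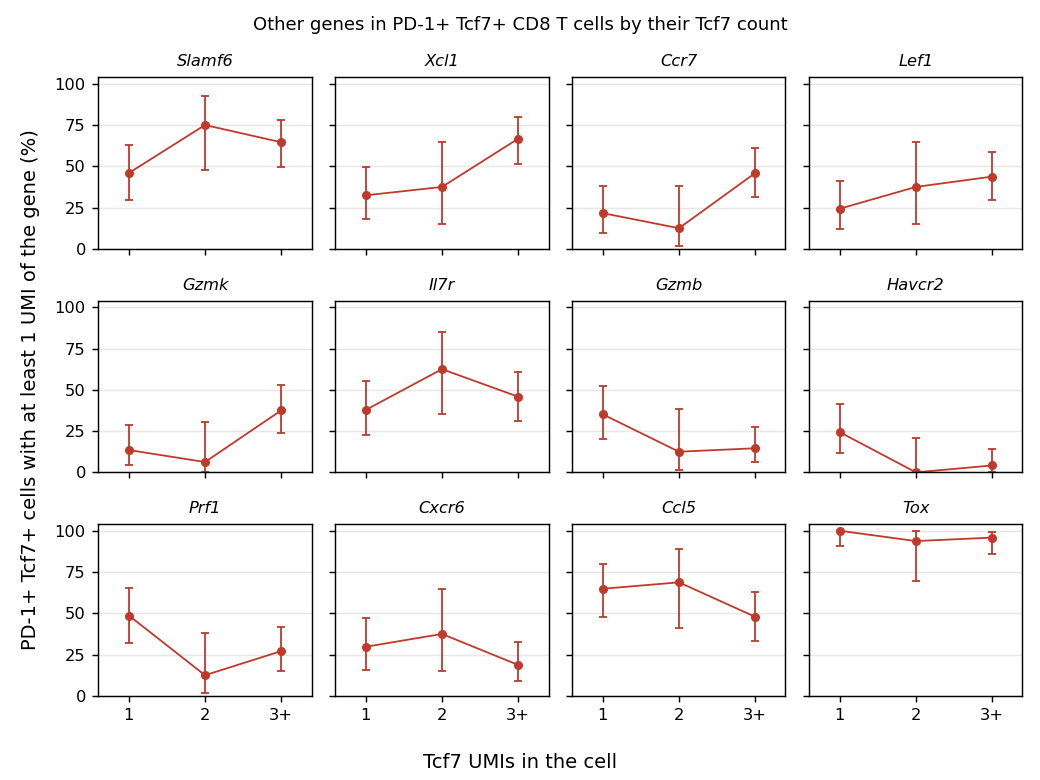
Percent of PD-1+ Tcf7+ cells with at least 1 UMI (vertical axis) of 12 genes, by the number of Tcf7 UMIs in the cell (1, 2, or 3 and more; 37, 16 and 48 cells of both libraries), with exact 95% intervals. Xcl1 stands at 32.4% in cells with 1 Tcf7 UMI and 66.7% in cells with 3 or more, and Havcr2 at 24.3% and 4.17%.

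Within PD-1+ Tcf7+ cells, KD and Ctrl differed by 2-fold in few genes, and the clearest was Gzma, which encodes granzyme A. Among 2356 genes that reached 50 UMIs over both libraries, KD had 14 (0.594%) higher and 51 (2.16%) lower. Gzma had 22 UMIs in 6 of 64 Ctrl cells (54.2 CPM) and 200 UMIs in 12 of 37 KD cells (706 CPM), a log2 ratio of 3.70 (3.06 to 4.41). In KD 40.0% of these UMIs came from 1 cell, and without the top cell of each library the ratio was 3.72. In the 19 Ctrl and 5 KD cells with no UMI of 8 macrophage, neutrophil and B cell genes it was -0.91, so its direction did not hold in that small set. The share of cells was 9.38% in Ctrl and 32.4% in KD, and 3.12% and 21.6% at equal depth, a difference of 18.5 points (4.4 to 35.3). Neutrophils had Gzma in 1.45% and 4.11% of cells. The B cell gate had it at 7.88 CPM in Ctrl and 25.1 in KD (4 and 49 UMIs), and macrophages at 12.1 and 6.17 CPM. The part of this background in the Gzma ratio was not tested. PD-1+ Tcf7- cells had a ratio in the same direction, 457 CPM in Ctrl and 2582 in KD, while PD-1- Tcf7+ cells had 293 and 190.

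Bcl2 was at 133 CPM in Ctrl and 314 in KD, a log2 ratio of 1.24 (0.74 to 1.75), and similar ratios of 1.10 and 1.17 were found in PD-1+ Tcf7- and PD-1- Tcf7+ cells. Foxp1, a factor that keeps T cells resting, was at 133 and 310 CPM, with 45.3% and 70.3% of cells positive. At equal depth its shares were 20.3% and 27.0%, a difference of 6.7 points with limits of -11.1 and 26.0.

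For some genes the KD over Ctrl ratio was higher than in the neighbouring groups, a difference that was not tested. Ifng, the cytokine interferon gamma, was at 143 and 286 CPM in PD-1+ Tcf7+ cells, a log2 ratio of 1.00 (0.50 to 1.51), while PD-1+ Tcf7- cells had -0.99 (-1.12 to -0.86) and PD-1- Tcf7+ cells -0.75 (-1.31 to -0.20). The shares of PD-1+ Tcf7+ cells with Ifng were closer, at 37.5% and 48.6%, and 18.8% and 21.6% at equal depth, and in the 24 cells without UMIs of other cell types the ratio was -1.47. Runx1, a transcription factor of T cell development, stood at 118 and 279 CPM, a ratio of 1.24 (0.70 to 1.79), against 0.36 and 0.17 in the other groups. Xcl1 stood at 256 and 441 CPM (0.78, interval 0.40 to 1.17), with -0.27 and -0.25 in the others, but in the 24 cells without UMIs of other cell types its ratio was -1.91. Ccl4 was at 219 and 871 CPM, but 69.2% of its KD UMIs came from 1 cell, 42.2% and 43.2% of cells were positive, and without the top cell of each library the Ccl4 ratio was 0.70.

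Some genes were lower in KD. Lag3 was detected in 57.8% and 35.1%, and in 26.6% and 8.11% at equal depth, a difference of -18.5 points (-32.5 to -1.3). The log2 ratio of its CPM was -0.87 (-1.58 to -0.20), so Lag3 did not reach 2-fold. Cxcr6 (log2 ratio -1.27), Irf4 (-1.45), the glucose transporter gene Slc2a3 (-1.13) and Zfp36 (-1.21) were among the list genes at least 2-fold lower. In Ctrl 45.8% of the Slc2a3 UMIs and 39.6% of the Zfp36 UMIs came from 1 cell. Without the top cell of each library the ratio was -0.45 for Slc2a3 and -1.02 for Zfp36, and -1.45 for Cxcr6 and -1.61 for Irf4. At equal depth Slc2a3 was in 9.38% and 13.5% of cells and Zfp36 in 9.38% and 10.8%. Cxcr6 was in 26.6% of Ctrl and 24.3% of KD cells, and in 12.5% and 8.11% at equal depth. Mdfic had the lowest ratio of the ranked genes, 212 CPM in Ctrl and 63.5 in KD, at -1.74 (-2.56 to -0.99). Mpp7, Farp1, Phlpp1, Kpna1, Stk39, Atad2b, Man2a1 and Ube2d2a were also among the 10 lowest, and Thoc2, Klre1, Ccl5, Satb1 and Selplg stood among the 10 highest with log2 ratios of 0.79 to 0.94.

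Progenitor-associated genes had a median log2 ratio of 0.06 with 1 of 17 higher (Bcl2) and 0 lower, and terminal exhaustion genes 0.01 with 1 higher (Ccl4) and 1 lower (Cxcr6) of 9, against -0.07 over all genes. Quiescence and recirculation genes had 0.40 with 2 of 11 higher (Bcl2 and Foxp1), and inhibitory receptors -0.50 with 0 of 5 past 2-fold. Cytokines and chemokines had 0.79 with 1 of 6 higher, NK-type receptors -0.45 with 0 of 5 past 2-fold, and type I interferon-stimulated genes -0.88 with 1 of 3 lower. Of all 2356 genes 0.594% were higher and 2.16% lower, and nothing is read from counts of 0 to 2 in lists of this size. Pdcd1 and Tcf7, fixed at 1 or more by the rule, stood at 330 and 332 CPM and at 374 and 413 CPM.

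**Figure D5:**
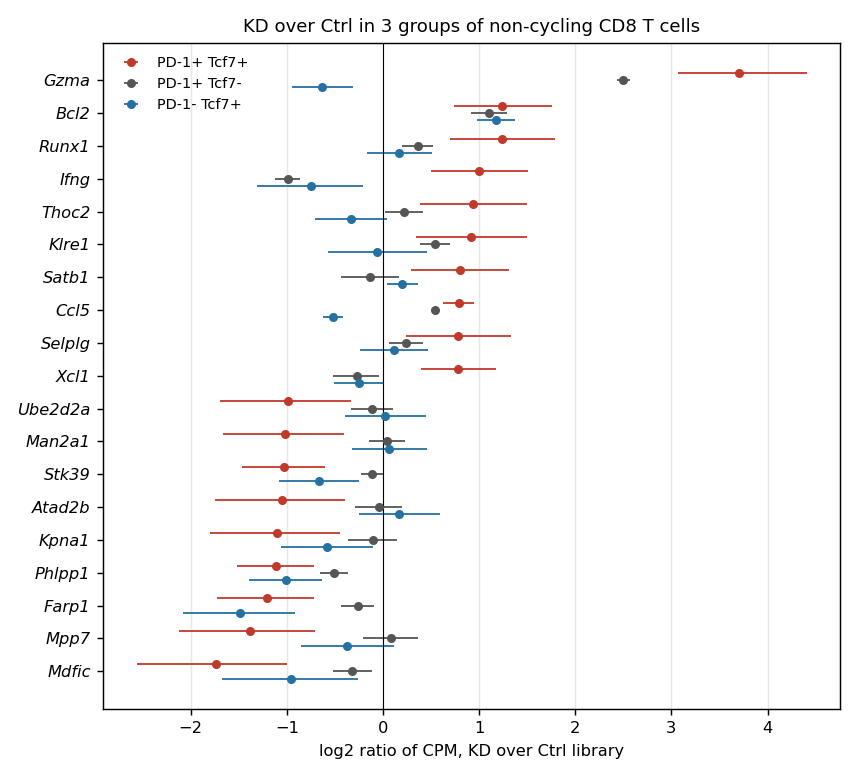
Log2 ratio of CPM, KD over Ctrl (horizontal axis), for the 10 highest and 9 of the 10 lowest ranked genes in PD-1+ Tcf7+ cells (red), with the same genes in PD-1+ Tcf7- (dark gray) and PD-1- Tcf7+ (blue) cells and exact 95% intervals. Bcl2 has like ratios of 1.24, 1.10 and 1.17 in the 3 groups, Gzma is at 3.70 in red and -0.63 in blue, and Ifng is at 1.00 in red and below 0 in the others.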

How the data were processed

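CD45+ cells of 2 pooled libraries, Ctrl and KD, were profiled with the 10x Genomics 3' v3.1 kit. Unnormalized UMI counts were deposited, which the authors made with Cell Ranger 7.1.0 on GRCm39 per the submitters' processing notes. The filter kept cells of 200 to 6000 genes with up to 30000 UMIs and no more than 10% of them mitochondrial. Doublets were limited by these caps and by the absence of Csf1r and Cd79a, and no doublet caller was run. The cells, gene lists and comparisons were chosen with earlier results of these data known.

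Counts were summed per group and library and scaled to CPM (Python 3.11.15, numpy 2.4.6, pandas 2.3.3). Shares have exact Clopper-Pearson intervals and log2 ratios exact conditional binomial intervals (scipy 1.17.1), at 95%. A sum of 0 was set to 3 counts over the group as a bound. Genes with fewer than 50 UMIs were not counted. Apart from list genes, the text names the 10 highest and 10 lowest ratios among genes with at least 100 UMIs, ranked with 5 CPM added. Genes of the rule, mitochondrial, ribosomal, receptor segment, sex-linked and unnamed genes were left out of this ranking, as were genes under 0.1 times their CPM in macrophages, neutrophils or B cells. Between cell groups the smaller of both libraries' ratios was ranked. Genes are named by the 56941 features of the files. TMM factors came from edgeR 4.0.16 (R 4.3.3). Hairpins came from the study's primer list. The ratio intervals were tested on simulated data. Genes with shared or antisense reads were not separated further. A few genes that the lists or the ranking hold are not reported here.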

Additional observations from a re-analysis of the deposited data

Results flagged for a closer look

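The ratios of some list genes pointed opposite ways in the 2 libraries, and that difference was not tested, since each group had 1 library. Against PD-1- Tcf7+ cells, Gzma had a log2 ratio of -2.44 in Ctrl and 1.89 in KD, Hk2 (hexokinase 2, the first step of glycolysis) -1.14 and 1.15, Ccl4 -0.56 and 0.97, Ccl5 -0.82 and 0.49, and Xcl1 -0.63 and 0.41. Against PD-1+ Tcf7- cells, the heat shock genes Hspa1a and Hspa1b had -0.39 and 0.74, and -0.23 and 0.54, and the NK-type inhibitory receptor gene Klrc1 had 0.29 and -0.44.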

How the results depend on the processing

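All values rest on 1 library a group and on 101 cells, so low genes are bounded by counting error alone. No paired analysis was possible because each group had 1 library. The share of PD-1+ Tcf7+ cells kept its direction, higher in KD, in each alternative within non-cycling CD8 T cells. It was 2.37% (Ctrl) with 2 Tcf7 UMIs asked for, 2.51% and 2.96% with 2 Pdcd1 UMIs, and 0.618% and 1.15% after thinning. Of cells with a CD3 sum of at least 2 it was 1.85% and 1.61%, and of all filtered cells 0.652% and 0.363%, lower in KD.

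Counts of genes (higher and lower) followed the minimum of UMIs by construction. Without a minimum they were 1087 and 1136 for KD over Ctrl, 492 higher against PD-1+ Tcf7- cells, and 351 and 328 against PD-1- Tcf7+ cells. With 200 UMIs asked for they were 3 and 3, 51 and 113, and 28 and 30, and after thinning 2 and 8, 69 and 123, and 30 and 56. Cells without a UMI of C1qa, C1qb, C1qc, Lyz2, S100a8, S100a9, Cd79b and Ms4a1 (19 Ctrl and 5 KD) gave 4 higher for KD over Ctrl. They gave 66 lower against PD-1+ Tcf7- cells, and 42 and 28 against PD-1- Tcf7+ cells. In these 24 cells Gzma (-0.91) and Man2a1 (0.64) reversed for KD over Ctrl, Ccr7 in KD reversed to -0.28 against PD-1+ Tcf7- cells and Tnfrsf9 in KD to -0.52 against PD-1- Tcf7+ cells. Ifng (-1.47) and Xcl1 (-1.91) also changed sign there, and the cause was not tested. Zfp36 reversed to 0.79 for KD over Ctrl after thinning. With 2 Tcf7 UMIs asked for, the Gzma ratio was 7.61, which rests on 1 Gzma UMI in Ctrl. Ctrl cells with 2 Tcf7 UMIs had 0 Gzma UMIs and those with 3 or more had 1, against 37 and 152 in KD. Without the top cell of each gene, an alternative chosen after seeing the data, the counts for KD over Ctrl were 8 and 80. TMM scaling, the stricter filters, the UMI cap of 15000 and the removal of shared barcodes or of neutrophil-rich cells, the last 2 chosen after seeing the data, moved no count by over 1.5 times.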
